A study of Mus musculus with 13 samples.

Results

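The regions described here are 1216 autosomal tiles of 1 kb that were sparsely methylated in mouse embryonic fibroblasts (MEF) and methylated in male induced pluripotent stem cells (XY iPSC) made from fibroblasts. They were chosen by their measured levels: a pooled methylation level of 20% or less in MEF and of 50% or more in XY iPSC, with at least 20 pooled reads in each and fewer than 40 CpG positions. The level of a tile is the methylated share, in percent, of all reads over its CpGs. Of 564180 tiles with any CpG read, 199321 were autosomal, held fewer than 40 CpG positions and had the reads, and 18135 of these were at 20% or less in MEF. The gained tiles were thus 0.61% of tiles of the kind and 6.71% of the tiles that started low. Another 15255 low tiles were under 20% in XY iPSC, and 1664 lay from 20% to under 50%.

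Methylation was measured by reduced representation bisulfite sequencing (RRBS), a method that samples CpGs close to the cut sites of a restriction enzyme. The 13 mouse libraries comprise, by their labels, 2 of male MEF, 1 of male intermediates without and 1 with the surface antigen SSEA1 (called SSEA1 negative and SSEA1 positive here), which appears on cells on the way to pluripotency, 3 of male XY iPSC, 4 of female iPSC marked XO (a single X) and 2 of female iPSC marked XaXa (both X chromosomes active). The labels name no strain, reprogramming factor, day or passage, and do not say whether libraries of a group came from separate cultures, so a p-value here measures only the spread between these libraries, which may be technical. The iPSC were depleted of feeder cells beforehand. The SSEA1, XO and XaXa libraries did not enter the choice of tiles. The SSEA1 sorted groups have 1 library each and no replicate check.

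CpG methylation in mammals is written on unmethylated DNA by the de novo enzymes Dnmt3a and Dnmt3b and copied at replication by Dnmt1 with its partner Uhrf1. During reprogramming the somatic methylation pattern is rewritten, with enhancers and promoters of the starting cell gaining methylation and those of pluripotency genes losing it. Mouse pluripotent cells with both X chromosomes active are known for low methylation across the genome, while those with a single X resemble male cells.

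No genome of the deposited build was used here, so whole tiles are given by position. Promoters from RefSeq (250 bases before to 50 after a start, GRCm38.p6) were located in the deposited tables by the spacing and flanking bases of their CpGs. Of 22 promoters that held CpGs of gained tiles, the sequences of 4 are shown, because their levels carry the patterns described later: the low level of XaXa (Ltbp1, Zfp629), the spread among XO libraries (Abcc9) and an SSEA1 positive level above MEF (Kcne4). Capitals mark each CpG read in at least 1 library. They are given from the 5′ to the 3′ end of the gene's strand and lie, in GRCm38.p6, at chr17:75178531-75178830 on the plus strand (Ltbp1), chr6:142702225-142702524 on the minus strand (Abcc9), chr1:78816661-78816960 on the plus strand (Kcne4) and chr7:127614384-127614683 on the minus strand (Zfp629).
Ltbp1: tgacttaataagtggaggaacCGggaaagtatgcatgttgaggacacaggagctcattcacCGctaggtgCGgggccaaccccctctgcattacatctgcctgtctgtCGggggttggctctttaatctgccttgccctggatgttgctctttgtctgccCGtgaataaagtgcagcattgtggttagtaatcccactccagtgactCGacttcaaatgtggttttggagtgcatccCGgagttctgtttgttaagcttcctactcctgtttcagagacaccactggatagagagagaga
Abcc9: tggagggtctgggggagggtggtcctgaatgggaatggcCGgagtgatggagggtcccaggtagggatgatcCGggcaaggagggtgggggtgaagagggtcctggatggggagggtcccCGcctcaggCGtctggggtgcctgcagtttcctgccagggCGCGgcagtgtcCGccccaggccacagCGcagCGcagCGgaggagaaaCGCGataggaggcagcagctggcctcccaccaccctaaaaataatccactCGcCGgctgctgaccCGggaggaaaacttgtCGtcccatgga
Kcne4: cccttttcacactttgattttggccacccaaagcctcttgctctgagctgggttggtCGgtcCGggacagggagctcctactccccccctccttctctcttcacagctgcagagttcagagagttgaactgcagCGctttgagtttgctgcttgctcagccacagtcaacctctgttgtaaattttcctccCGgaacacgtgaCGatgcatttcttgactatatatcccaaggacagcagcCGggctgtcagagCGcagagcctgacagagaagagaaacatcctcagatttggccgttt
Zfp629: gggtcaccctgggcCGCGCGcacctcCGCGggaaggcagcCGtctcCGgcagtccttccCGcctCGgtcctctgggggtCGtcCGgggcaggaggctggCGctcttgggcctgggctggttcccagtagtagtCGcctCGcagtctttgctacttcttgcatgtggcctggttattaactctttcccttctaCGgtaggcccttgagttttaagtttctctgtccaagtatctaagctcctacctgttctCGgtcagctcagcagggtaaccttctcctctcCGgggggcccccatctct

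Total CpG reads ran from 4784488 (XO 9) to 143148634 (XaXa 8), so the XO 9 library limits any count that needs every library. Reads on X per 10 autosomal reads were 0.283 in MEF 4 but 0.401 in MEF 5, and reads on Y were 0.0913% and 0.0219% of autosomal reads. The Y share of MEF 5, which is labelled male, was below the 0.0397% to 0.0485% of the female iPSC. Among libraries labelled XO, the X value was 0.327 in XO 6, within the 0.316 to 0.33 of XY iPSC, and 0.397, 0.389 and 0.414 in XO 3, 5 and 9, below the 0.446 and 0.441 of XaXa. The X values of XO 3, 5 and 9 thus lay nearer to XaXa than to XY iPSC. The counts by group are given also for tiles chosen without MEF 5, and the comparison of XaXa with XO also with XO 6 alone; positions, CpG numbers and single tiles are given for the full choice only.

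A second limit concerns which CpGs were read. Of CpGs in the gained tiles with 5 or more reads in pooled MEF, 85.4% had 5 reads in the pooled SSEA1 libraries but 65.9% in pooled XY iPSC, whereas 97.5% of the CpGs of XY iPSC were read in XO and 90.9% in XaXa. The share was alike over all tiles of the kind, 66% of MEF CpGs in XY iPSC. A CpG is called read in both MEF and XY iPSC here and below if it had 5 or more pooled reads in each. On such CpGs, 1000 of the 1216 tiles had 20 reads in each group, and their mean pooled levels were 12.3% and 66.3%. XY iPSC were at least 20 percentage points higher in 991 of them, and 855 were still within both limits. Another 30 tiles had no CpG with 5 or more reads in both, so for these the gain could not be checked on the same CpGs.

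The tiles were low in fibroblasts rather than empty. The median pooled level was 13.5% in MEF and 66.7% in XY iPSC; 42 tiles were at 0% in MEF, 498 lay between 15% and 20%, and 13 reached 90% or more in XY iPSC. These values chose the tiles and are a description. The depth was modest, with a median of 65.5 pooled reads in MEF and 159.5 in XY iPSC, and 471 tiles had under 50 reads in MEF. Just inside the MEF limit lay chr8:89640001-89641000 (20% in MEF, 80.7% in XY iPSC) and chr1:155733001-155734000 (19.9% and 53%), and just outside it chr7:37954001-37955000 (20.1% and 84.2%) and chr14:69873001-69874000 (20.2% and 57.5%). Just inside the limit for XY iPSC lay chr9:63000001-63001000 and chr16:31618001-31619000, both at 50%, and just outside it chr13:84127001-84128000 and chr16:95824001-95825000, both at 49.7%.

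The choice was then repeated without 1 library, and the levels were read in the library left out. With XY iPSC 1, 2 or 4 left out, the chosen tiles stood at 63.7%, 70.7% and 62.6% on average in the library that had no part in the choice, and 81.9%, 91.1% and 78.1% of them were at 50% or more there, beside 73.2%, 72.3% and 75.7% of all tiles in the same libraries. At XY iPSC 4 the share was thus near that of all tiles. Of tiles at 20% or less in pooled MEF, 6.12%, 5.76% and 6.26% reached 50% in XY iPSC 1, 2 and 4. The MEF level of the chosen tiles depended on the library. Without MEF 4, 994 tiles were chosen, and their mean level in MEF 4 was 16.3%. At 20% or less in MEF 4 stood 69.7% of them, beside 13.3% of all tiles of the kind. Without MEF 5, 1296 tiles were chosen, of which 559 were among the 1216. The mean level of the 1296 in MEF 5 was 30.4%, with 32.2% at 20% or less, beside 9.58% of all tiles of the kind.

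The largest gains among tiles read in every library are given as a description, since the rule used them. At chr15:27712001-27713000, with 6 CpG positions, the level was 2.17% and 0% in MEF 4 and 5, 76.8%, 80.7% and 73.9% in XY iPSC 1, 2 and 4, 7.14% in SSEA1 negative and 1.5% in SSEA1 positive. The 4 XO libraries, which had no part in the choice, stood at 83.5%, 86.8%, 83.5% and 91.7% there and XaXa 7 and 8 at 57% and 53.7%, so every iPSC library was above every MEF and sorted library. At chr3:52848001-52849000, 2.53 kb from the start of Lhfp (a tetraspan membrane protein gene), pooled MEF were at 4.59% and pooled XY iPSC at 78.9%, with 10.6% and 5.07% in the sorted libraries, an XO mean of 82% ± 5.3 (SD, n = 4) and an XaXa mean of 53.5% ± 11.5 (SD, n = 2). The next were chr5:74571001-74572000, chr14:25720001-25721000, chr1:122133001-122134000 and chr16:93382001-93383000, where XY iPSC were 69.5 to 73 points above MEF. At the tile on chromosome 1 SSEA1 negative stood at 44.4% and SSEA1 positive at 5.97%, above and below both MEF libraries (19.2% and 8.41%).

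**Figure D1:**
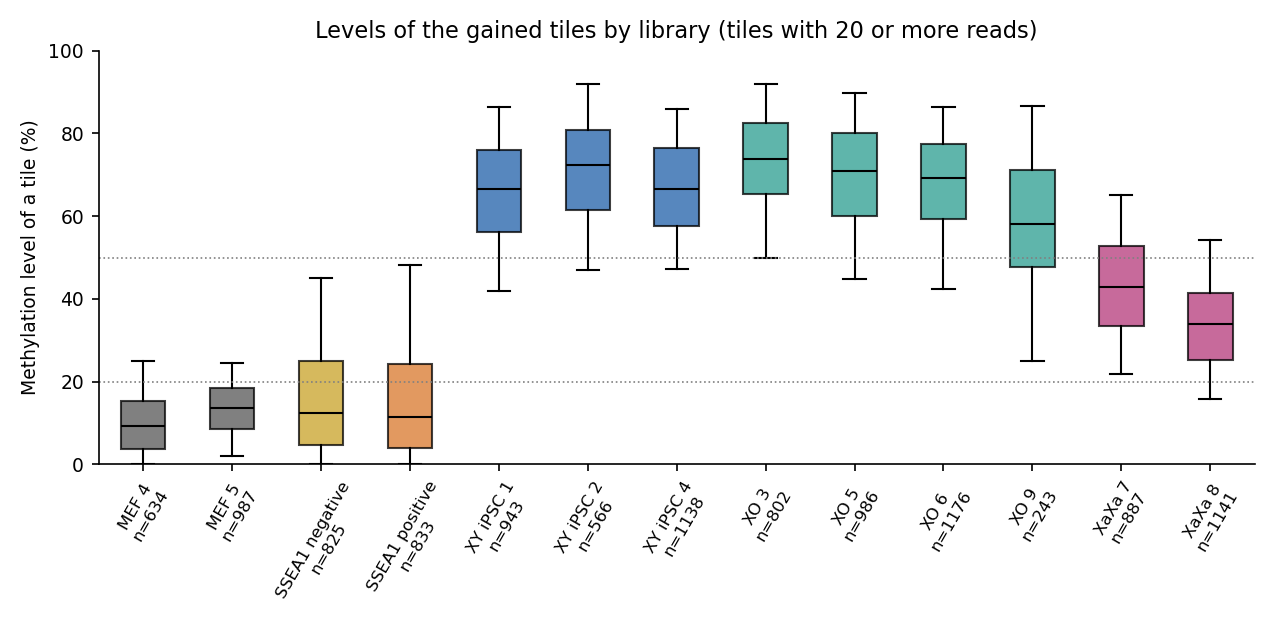
Methylation level of the gained tiles (vertical axis, percent) in each of the 13 libraries, over tiles with 20 or more reads in that library (n under each name). Boxes span the quartiles around the median line, whiskers the 5th to 95th percentile, and dotted lines the 20% and 50% limits; MEF and XY iPSC chose the tiles, both SSEA1 libraries sit near MEF, XO near XY iPSC, and XaXa lies between.

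The plot of the tiles by library shows a low, a middle and a high band. For an even comparison, 167 gained tiles had 20 reads in all 13 libraries. On these, the mean level was 11.2% and 13.8% in the MEF libraries, 16.6% in SSEA1 negative, 15.4% in SSEA1 positive, and 62.4%, 68% and 65.3% in XY iPSC 1, 2 and 4. The 4 XO libraries, in the order 3, 5, 6 and 9, had means of 70.5%, 67.2%, 65.9% and 57.4%, and XaXa 7 and 8 had 41.4% and 32.3%. By group this gave 12.5% ± 1.78 (SD, n = 2) for MEF, 65.3% ± 2.8 (SD, n = 3) for XY iPSC, 65.3% ± 5.6 (SD, n = 4) for XO and 36.8% ± 6.39 (SD, n = 2) for XaXa. The XO and XY iPSC libraries overlapped, and both XaXa libraries lay below all of them and above both MEF libraries.

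The intermediates sorted by SSEA1 had little of the gain. Of 833 gained tiles with 20 reads in SSEA1 positive, 40 were at 50% or more, or 4.8% (95% Wilson interval 3.55 to 6.47), and 578 (69.4%) were still at 20% or less. In the same library 77.8% of all tiles of the kind and 0.726% of tiles at 20% or less in MEF reached 50%. In SSEA1 negative 30 of 825 gained tiles reached 50%, or 3.64% (interval 2.56 to 5.14), beside 79.5% of all tiles and 0.594% of the tiles low in MEF, and 558 (67.6%) stayed at 20% or less. Intervals cover counting error only, and a read spanning several CpGs counts at each, so they are too narrow. Of all tiles of the kind, 11.8% were at 20% or less in SSEA1 positive and 10.7% in SSEA1 negative. For tiles low in MEF that did not gain, these shares were 92.9% and 92.4%. Between 20% and 50% lay 25.8% and 28.7% of the gained tiles, beside 6.59% and 7.14% of those low tiles. Gained tiles were also the higher set in MEF 4 and 5, with means of 10.4% and 13.6% beside 4.33% and 5.78%. The median level of the gained tiles was 11.4% in SSEA1 positive and 12.5% in SSEA1 negative. On the CpGs read in both MEF and XY iPSC, the mean levels were 14.6% and 15.1%, next to 10.6% and 13.4% in MEF 4 and 5. Where the tiles were chosen without MEF 5, more of them were methylated in the sorted cells. At 50% or more stood 16.7% in SSEA1 positive and 14.7% in SSEA1 negative. In MEF 5, which had no part in that choice, the share was 14.3% (175 of 1220), near that of both sorted libraries. For tiles chosen without MEF 4, the share in MEF 4 was 3.72%.

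The 2 sorted libraries had like means at these tiles. Over 698 gained tiles read in both, the mean was 15.2% in SSEA1 positive and 15.6% in SSEA1 negative. In 38 tiles (5.44%) the positive library was at least 20 points higher, beside 4.34% of all tiles of the kind and 1.45% of tiles low in MEF, and in 45 (6.45%) it was at least 20 points lower, beside 5.85% of all tiles and 1.84% of tiles low in MEF. The shares over all tiles were thus near those of the gained tiles. Both libraries were at 20% or less in 411 of the 698 tiles and at 50% or more in 7, beside 11490 and 18 of 13092 tiles low in MEF.

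A few tiles with reads in every library were already methylated in the sorted cells. The highest in SSEA1 positive was chr11:106657001-106658000, a tile of 7 CpG positions whose nearest located start is that of Cep95, 6.43 kb away. It stood at 16.1% and 15.3% in MEF 4 and 5, 50.7% (interval 42.5 to 58.9, 140 reads) in SSEA1 negative and 67.9% (49.3 to 82.1, 28 reads) in SSEA1 positive. Both sorted libraries were above both MEF libraries and within the range of XY iPSC, 53.8% to 72.4%, or just below it. The tile chr8:27881001-27882000 was at 20.9% and 19.2% in MEF, 34.1% (28 to 40.9) in SSEA1 negative and 50% (42 to 57.9) in SSEA1 positive, with XY iPSC at 84.2%, 83.3% and 85%. At chr4:152870001-152871000, 13.1 kb from the start of Ajap1 (an adherens junction associated protein), the levels were 0% and 24.2% in MEF, 24.1% (16.2 to 34.3) in SSEA1 negative and 50% (39.5 to 60.5) in SSEA1 positive. The MEF libraries differed there by as much as the sorted ones.

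Among tiles with 20 reads in each library and 3 CpGs read in all, SSEA1 positive exceeded SSEA1 negative by most at chr3:149508001-149509000. The level was 5.26% (interval 1.46 to 17.3, 38 reads) in SSEA1 negative and 58.1% (40.8 to 73.6, 31 reads) in SSEA1 positive, with MEF at 12.8% and 15.9% and XY iPSC at 62.1%, 76.3% and 72.5%. SSEA1 positive was 52.8 points above SSEA1 negative, and on CpGs read in both MEF and XY iPSC the levels were 0% and 52.2%. At chr15:32023001-32024000 the gap was 30.9 points, from 2.74% (0.755 to 9.45) to 33.6% (25.4 to 43). The intervals of the sorted libraries did not overlap at either tile, but both tiles were picked for these gaps, so this tests nothing. With 1 library each, neither gap has a replicate check.

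The XO iPSC carried the gain in nearly full measure. Of 235 gained tiles read in all 4 XO libraries, 208 (88.5%) had a mean of 50% or more and 0 a mean of 20% or less, beside 65.8% at 50% or more among all tiles of the kind and 3.43% among tiles low in MEF. Over the tiles each library read (802, 986, 1176 and 243), the share at 50% or more was 95.8%, 89.9%, 88.7% and 72.8% for XO 3, 5, 6 and 9. The share at 20% or less ran from 0.125% (XO 3) to 3.7% (XO 9), beside 11.4% and 24.7% of all tiles of the kind there. XO 9 also had the fewest reads, and the part of depth in its lower share was not tested. On the 167 gained tiles read in every library XO 9 was lowest, and on the 33504 tiles of the kind read in every library it was lowest too, at 49.6% beside 54.9% to 57.4%. For tiles chosen without MEF 5, the XO mean was 50% or more in 338 of 367.

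In XaXa iPSC the gain was partial. Of 886 gained tiles read in both libraries, 157 (17.7%) had a mean of 50% or more, beside 31.8% of all tiles of the kind and 1.11% of tiles low in MEF, and 52 (5.87%) a mean of 20% or less. The share at 50% or more was 32.6% in XaXa 7 and 10.1% in XaXa 8, beside 44.2% and 19% of all tiles of the kind. The share at 20% or less was 4.17% and 12.7%, beside 17% and 22.1% of all tiles and 88% and 91.2% of tiles low in MEF. Between the limits of 20% and 50% lay 561 of 887 gained tiles (63.2%) in XaXa 7 and 881 of 1141 (77.2%) in XaXa 8, beside 38.8% and 58.9% of all tiles. For tiles chosen without MEF 5, the mean was 50% or more in 207 of 1103 in XaXa.

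XaXa and XO were compared tile by tile with a quasi-binomial model over 48152 tiles with 20 reads in each of the 6 libraries, calling a tile at an adjusted p (Benjamini-Hochberg) under 0.05 and a difference of at least 10 points. The p-value compares levels pooled over the reads of each group, so deep libraries weigh more. The difference is between unweighted means of libraries. Of 233 gained tiles tested, 224 (96.1%) were lower in XaXa, beside 76.4% of all tiles tested. In the other direction 0 were higher, beside 0.0166% of all tiles (8). At an unadjusted p under 0.05, 226 differed, and the share of all tiles at that limit was not counted. A fit that down-weights reads by 1 overdispersion for all tiles, which made fewer false calls on simulated data, called 223 lower and 0 higher. Over all tiles in that fit 73.4% were lower. A model that weights the libraries equally (limma on log2 ratios of methylated to unmethylated reads) called 198 lower (85%) and 0 higher. Of all tiles it called 64.7% lower. For tiles chosen without MEF 5, 356 of 364 were lower, beside the same 76.4% of all tiles tested. Without XaXa 8, which leaves 1 XaXa library, fewer gained tiles were called, and the mean difference over the 233 tiles was -24 points. With XO 6 as the only XO library gained tiles were called in both directions, and the mean difference over 882 of them was -28.7 points.

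The mean over the 233 tiles was 37.4% in XaXa and 66% in XO, a difference of -28.6 points and a ratio of 0.567. Tiles methylated in both MEF and XY iPSC were at 76.3% in XO and 47.4% in XaXa, a ratio of 0.621, and the ratio was 0.614 over all tiles of the kind and 0.591 over low tiles that did not gain. Whether these ratios differ was not tested. The XaXa mean was below the XO mean in all 233 tiles, with differences from -45.9 to -0.12 points. Both XaXa libraries lay below all 4 XO libraries in 193 of them (82.8%), beside 69.8% of all tiles and 91.4% of the tiles methylated in both MEF and XY iPSC.

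**Figure D2:**
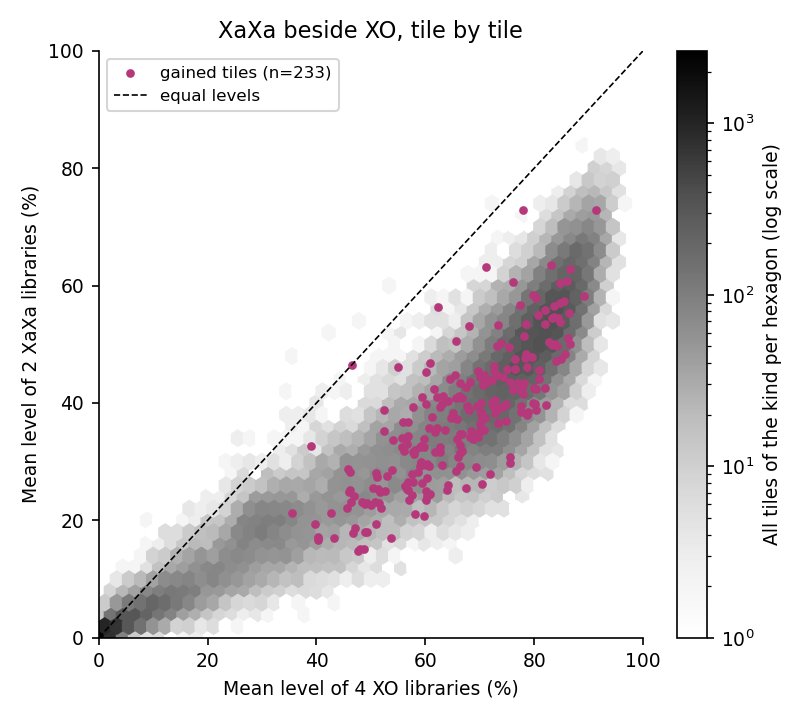
Mean level of the 2 XaXa libraries (vertical axis, percent) against the mean of the 4 XO libraries (horizontal axis, percent) for tiles with 20 reads in each of the 6 libraries. Grey hexagons count all tiles of the kind on a log scale, points are the 233 gained tiles, and the dashed line marks equal levels; every point lies on or under it, the nearest by 0.12 points.

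The largest deficit in XaXa lay beside the start of Ltbp1, which codes for a secreted protein that holds latent TGF-beta in the extracellular matrix. At chr17:75577001-75578000 (mm9), which ends 0.121 kb before the start, the level was 85.4%, 70.1%, 67% and 80% in XO 3, 5, 6 and 9 and 33.3% and 26.1% in XaXa 7 and 8. The groups did not overlap. The means were 75.6% ± 8.58 (SD, n = 4) and 29.7% ± 5.11 (SD, n = 2), a difference of -45.9 points (quasi-binomial model, adjusted p = 2.75e-05). MEF were at 0% and 4.76%, the SSEA1 libraries at 6.52% and 1.49%, and XY iPSC at 67.1%, 80% and 67.3%.

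The other tiles with the largest deficits and no overlap between XaXa and XO lay far from any located start. At chr15:32023001-32024000 the XO levels were 76.4%, 76%, 69.1% and 80.9%, while XaXa stood at 36% and 25.7%, a difference of -44.8 points (quasi-binomial model, adjusted p = 1.41e-05). The difference was -44.1 points at chr14:109311001-109312000, -43.9 at chr8:26453001-26454000 and -42.5 at chr3:61963001-61964000, the last of which was read at 22 CpG positions. In each of these 3 tiles the XaXa mean was between 26.2% and 39.6% and the XO mean between 70.4% and 82.1%.

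Some gained tiles had a high level in XaXa. At chr4:135795001-135796000, named after its values were seen, XaXa 7 and 8 were at 75% and 70.7% and XO 3, 5, 6 and 9 at 95.8%, 90%, 46.6% and 79.2%. Among tiles with 20 reads in each library and 3 CpGs read in all, the highest in XaXa was chr16:93382001-93383000, with XaXa 7 and 8 at 66.9% and 60.2% beside 87.3%, 87.8%, 85.5% and 72% for the XO libraries. The next was chr7:129244001-129245000, 0.362 kb from the start of Ndufab1, the mitochondrial acyl carrier protein. XaXa were at 66.3% and 59.9% there and XO at 73.2%, 69.4%, 83.8% and 58.3%, so the groups overlapped and the difference of -8.06 points was under the 10 points of a call. At chr5:141123001-141124000, 0.985 kb from the start of Ttyh3 (a chloride channel family member), XaXa were at 69.6% and 51.5% and XO ran from 57.9% to 85.6% (quasi-binomial model, adjusted p = 0.145). These last 2 tiles and the one on chromosome 4 are among the 9 of 233 that were not called.

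Among tiles with 20 reads in each library and 3 CpGs read in all, XO libraries differed most at the promoter of Abcc9, which codes for the SUR2 regulatory subunit of ATP-sensitive potassium channels. In the tile chr6:142650001-142651000, with 22 CpG positions and the start inside it, the level was 69.8%, 82.6%, 5.22% and 28.6% in XO 3, 5, 6 and 9. XaXa were at 49.2% and 43.7%, XY iPSC at 59.5%, 81.8% and 42.8%, MEF at 5.56% and 1.91%, and the SSEA1 libraries at 1.54% and 2.22%. The XO 6 value rested on 556 reads and was as low as in MEF, while XO 3 was within and XO 5 just above the range of XY iPSC. The XO mean of 46.6% ± 35.9 (SD, n = 4) and the XaXa mean of 46.4% ± 3.91 (SD, n = 2) did not differ beyond this spread (quasi-binomial model, adjusted p = 0.415).

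The next widest ranges over XO in that set were of the same form, with 1 or more libraries near the fibroblast level. At chr2:165071001-165072000, 10.8 kb from the start of Cdh22 (a cadherin), XO stood at 75.6%, 74.9%, 44.3% and 14.5%, while XY iPSC were at 77.7%, 93.6% and 77.8%. This tile belongs to a run of 3 gained tiles. At chr18:52687001-52688000 XO 3, 5, 6 and 9 stood at 61.7%, 48.1%, 46.7% and 5%, the last over 20 reads. In the same set the tile lowest in XO was chr15:88121001-88122000, at 41.7%, 39.8%, 41.8% and 18.5%, followed by chr5:119715001-119716000 at 54.6%, 33.8%, 59.4% and 13.2%. In 4 of these 5 tiles XO 9 was the lowest of the XO libraries, and at Abcc9 XO 6 was.

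Where starts could be located, the share of gained tiles near one was a little below that of all tiles of the kind. Outside chromosome 18, which was not analysed here for starts, 47 of 1173 gained tiles (4.01%) lay within 1 kb of a located start, beside 42.8% of tiles low in MEF, 5.8% of all tiles of the kind and 0.894% of tiles methylated in both MEF and XY iPSC. A start could be located only where its promoter held at least 4 CpGs read in the tables, so these shares are lower bounds. Starts in CpG-rich tiles were thus easier to locate, and tiles low in MEF held more CpGs than gained tiles. The part of this in the contrast with tiles low in MEF was not tested. The share of low tiles that gained fell with CpG number. Tiles of 1 to 2 CpG positions that were low in MEF were gained tiles in 24.2% of cases (170 of 703), those of 3 to 5 in 20.7%, of 6 to 9 in 14%, of 10 to 19 in 3.57% and of 20 to 39 in 0.248% (18 of 7245). The median was 5 CpG positions in gained tiles, 16 in tiles low in MEF and 6 in all tiles of the kind. In XaXa and XO, which had no part in the choice, the ratio of XaXa to XO was 0.557 to 0.594 over these classes, from 2 tiles at 1 to 2 CpG positions, 12 at 20 to 39 and 45 to 93 in the others.

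**Figure D3:**
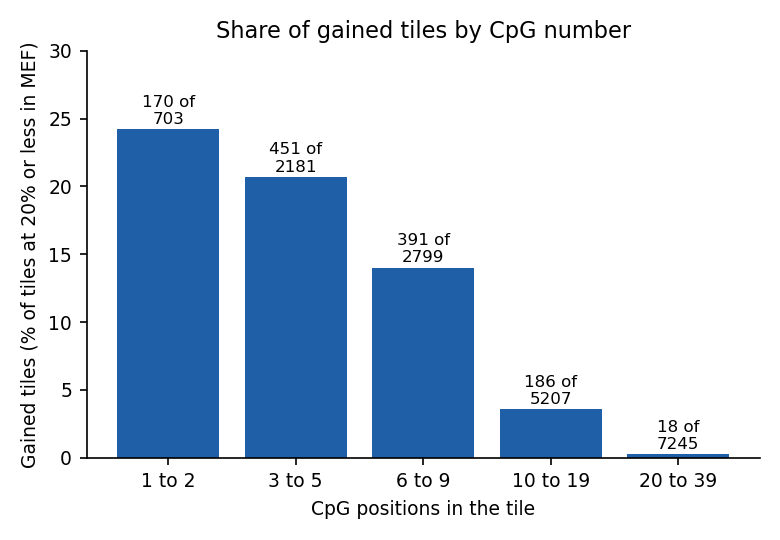
Gained tiles as a percent of tiles at 20% or less in MEF (vertical axis) by the number of CpG positions in the tile (horizontal axis), with counts above each bar. The share falls from 24.2% at 1 to 2 CpG positions to 0.248% at 20 to 39.

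Gained tiles were spread over all 19 autosomes, from 5.28% of the tiles low in MEF on chromosome 14 to 8.43% on chromosome 18. Most stood alone: with a gap of under 10 kb counted as a run, 1063 were single, 64 runs held 2 and 8 held 3 or more. The longest run, chr9:74694001-74714000, held 4 gained tiles among 13 that were low in MEF. Its mean level was 0.388% and 12.6% in MEF 4 and 5, 38.6%, 73.5% and 66.4% in XY iPSC 1, 2 and 4, 72.5%, 55.1%, 53.6% and 21.7% in XO 3, 5, 6 and 9, and 33.5% and 28.6% in XaXa. These are means over the tiles of the run that a library read. Runs of 3 lay at chr2:158428001-158439000 and at chr2:165068001-165072000, near Cdh22.

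No gene of 5 lists had a gained tile within 1 kb of its located start. Near any located start there were 47 gained tiles among 7537 tiles low in MEF, so a count of 0 over these lists shows nothing particular to them. Among pluripotency genes, 11 of 28 had a located start and 7 had a tile low in MEF. Among mesenchymal and fibroblast genes these were 9 of 38 and 8, among genes of the methylation machinery 14 of 20 and 7, and among Hox genes 16 of 39 and 10. Germline genes, whose promoters are known to be silenced by methylation in somatic cells, had 18 of 36 located and 0 with a tile low in MEF, and at 8 of them a tile was methylated in both MEF and XY iPSC. Most genes of the lists were thus not covered, and their absence from the gained tiles holds only for the starts that were.

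Of the 22 promoters that held CpGs of gained tiles, 6 belong to predicted genes (names starting with Gm), and each is the promoter of a RefSeq transcript that need not be the gene's main one. At Ltbp1, whose 7 CpGs all lay in 2 adjacent gained tiles, the promoter level was 0.862% in pooled MEF and 53.1% in pooled XY iPSC. XO 3, 5 and 6 were at 74%, 60.7% and 63.7%, and XaXa 7 and 8 at 24% and 20.2%. Neither sorted library had a methylated read there, 0 of 83 in SSEA1 negative and 0 of 73 in SSEA1 positive, which allows levels of up to 3.61% and 4.11% if 3 counts are taken as the limit of a count of 0 (the Wilson upper bounds are 4.42% and 5%). The single CpGs showed the same order. At the 4 CpGs read in both MEF and XY iPSC the pooled level was between 0% and 5.88% in MEF, between 34% and 66.7% in XY iPSC and between 10.3% and 26.7% in XaXa.

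**Figure D4:**
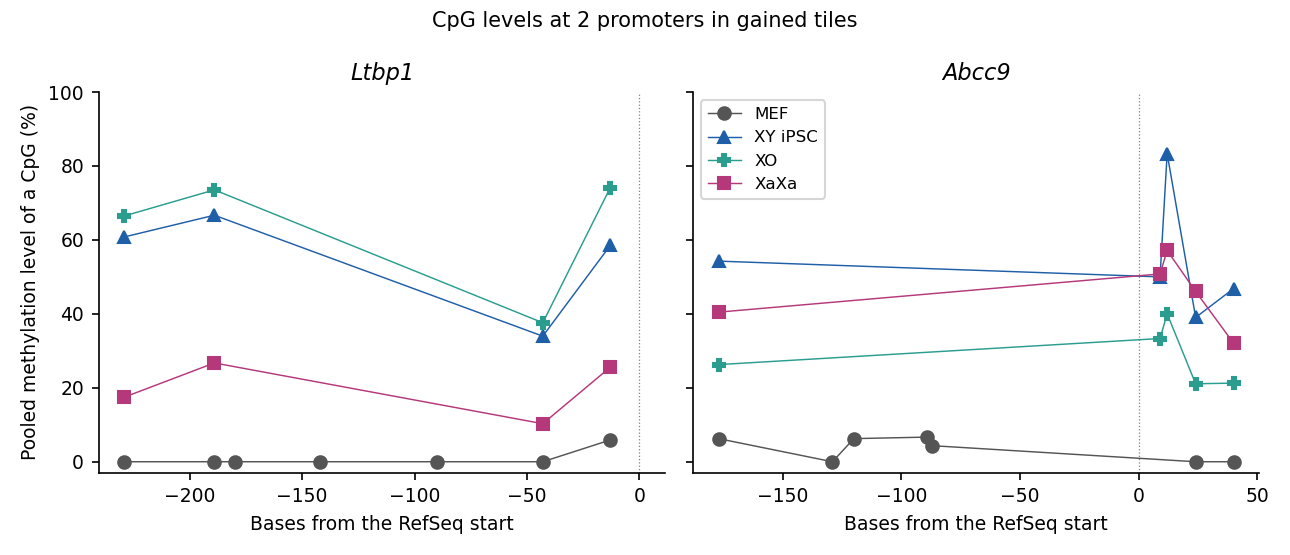
Pooled methylation level (vertical axis, percent) of single CpGs against their distance in bases from the RefSeq start of Ltbp1 (left) and Abcc9 (right), for CpGs with 5 or more pooled reads in MEF (MEF line) or in XY iPSC (other lines). At Ltbp1 the order of the groups is the same at each CpG with XaXa between MEF and the other iPSC, and at Abcc9 the pooled XO line, mostly reads of XO 6, lies below XaXa.

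At the Abcc9 promoter the pooled level was 2.95% in MEF and 48.5% in XY iPSC, and 56.1%, 78.8% and 3% in XO 3, 5 and 6. MEF reads covered CpGs upstream of the start that iPSC reads did not. On the 3 CpGs with 5 or more reads in both, MEF were at 1.85% and XY iPSC at 47.1%. The adjoining 1 kb tile was among the gained tiles as well.

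The promoter of Kcne4, an ancillary subunit of voltage-gated potassium channels, was at a pooled 14.3% in MEF and 85.8% in XY iPSC, and at 96%, 97.2% and 87.3% in XO 3, 5 and 6. In SSEA1 positive it was at 48.8% (interval 38.1 to 59.5, 80 reads) and in SSEA1 negative at 18.2% (10.7 to 29.2, 66 reads). The intervals of the sorted libraries did not overlap, but MEF 4 (31.8%) and MEF 5 (8.06%) differed from each other too. The promoter was also picked after its values were seen, so the lack of overlap tests nothing. Too few XaXa reads fell there to give a level. At Zfp629, a zinc finger gene, the promoter was at 5.41% in MEF, 54% in XY iPSC, 69.5%, 56.4% and 62.8% in XO 3, 5 and 6, and 18.5% and 18.4% in XaXa 7 and 8. The sorted cells were at 4.13% and 1.97% there, as low as MEF, and 2 of its 17 CpGs lay in the gained tile. Those 2 CpGs held 247 and 239 of the 554 XY iPSC reads, and each other CpG had at most 8. The XY iPSC level is thus mainly that of those 2 CpGs.

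**Figure D5:**
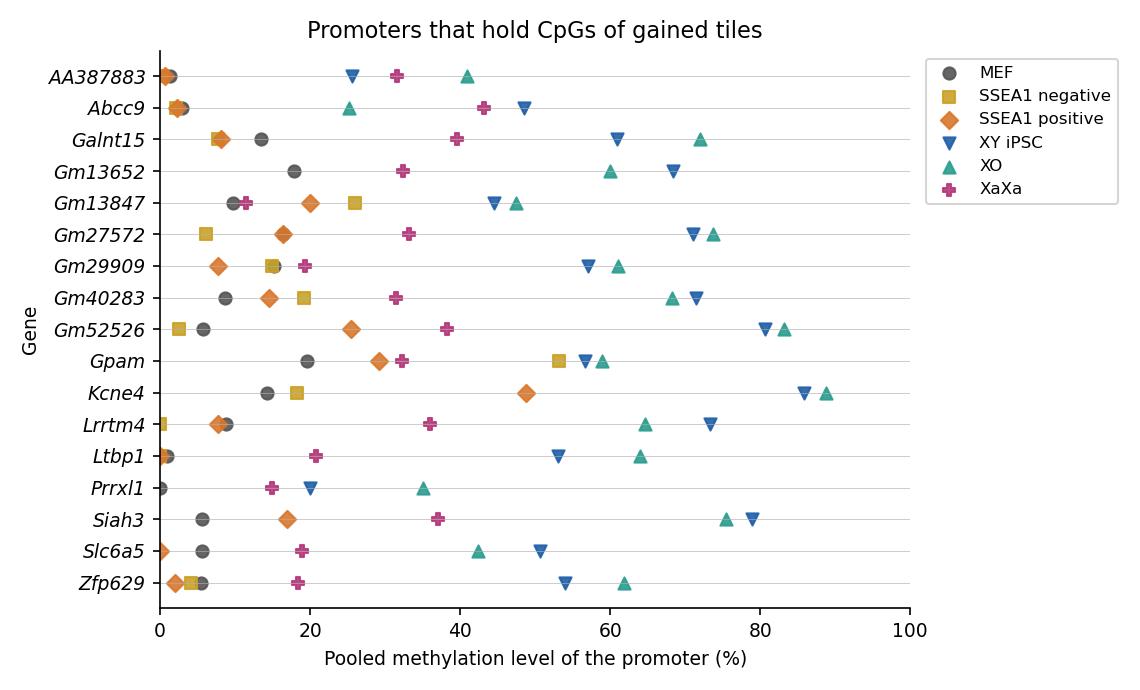
Pooled methylation level (horizontal axis, percent) of the promoters that held CpGs of gained tiles and had 20 pooled reads in MEF and in XY iPSC, by group (symbols; a group with under 20 reads is not drawn). SSEA1 symbols lie closer to MEF than to XY iPSC at most genes, SSEA1 negative at Gpam being an exception, and XaXa lies below XY iPSC except at AA387883.

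Several other promoters showed the same order, with XaXa between MEF and XY iPSC. AA387883 did not, with 1.34% in MEF, 25.6% in XY iPSC and 31.6% in XaXa. MEF and XY iPSC were read there mainly at different CpGs. At the 1 CpG with 5 or more reads in both, MEF were at 37.5% (8 reads) and XY iPSC at 43.5% (23 reads). Slc6a5, the glycine transporter GlyT2 of inhibitory neurons, was at 5.63% in MEF, 50.7% in XY iPSC and 18.9% in XaXa. Galnt15, an enzyme of mucin-type O-glycosylation, went from 13.4% in MEF to 60.9% in XY iPSC and was at 39.5% in XaXa, though 1 CpG only was read in both. Lrrtm4, a synaptic adhesion protein, went from 8.77% to 73.3%, with 36% in XaXa and 1 shared CpG. At Gpam, which codes for a mitochondrial enzyme of triglyceride synthesis, SSEA1 negative was already at 53.1% (interval 36.4 to 69.1, 32 reads), SSEA1 positive at 29.2% (14.9 to 49.2, 24 reads), MEF at 19.5% and XY iPSC at 56.6%. At Gatm, Pdcd7, Ccrl2, Krtap17-1 and Trpm3 the promoter itself lacked 20 reads in MEF or in XY iPSC, and the gain of the tile lay outside it or on CpGs read in 1 of them only.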

How the data were processed

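RRBS was measured in 13 mouse libraries. Per the file headers, the deposited tables hold total and methylated read counts for each CpG. Their fraction column, deposited by the authors, is the quotient of both and was left aside. The submitters' processing notes name BSMAP and mm9; the version and settings of the aligner are not stated in these sources. Counts were summed per 1 kb tile, so deep libraries weigh more in pooled levels. Tile positions are mm9, counted from 1.

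The gained tiles, gene lists and tests were chosen with earlier results of these data known. XaXa was compared with XO by a quasi-binomial model with dispersion moderated by limma 3.58.1 (R 4.3.3) and adjusted by Benjamini-Hochberg over 48152 tiles. On simulated data for this comparison it called 64 of 100 tiles changed by 20 points, 100 of 100 changed by 40 and 803 of 47952 unchanged tiles. A fit that down-weights reads by 1 overdispersion (Williams), added after that, called 15, 98 and 1. In the simulation no other tiles were changed, and the spread between libraries was a fixed setting. In the real data 76.4% of tiles were called lower, so these rates do not carry over to it. Other values used Python 3.11.15, numpy 2.4.6 and pandas 2.3.3.

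Named tiles had 20 reads in each library and at least 3 CpGs read in all (137 tiles): the 6 largest gains, the 4 highest and 3 largest differences in SSEA1 positive, the 5 largest XaXa deficits without overlap, the 3 highest in XaXa, the 3 lowest and 3 most variable in XO, and tiles at the limits. The promoters were chosen after their values were seen. Of 21581 RefSeq promoters with at least 4 CpGs, 12876 matched 1 position in the tables, and the 12819 whose shift a neighbour shared were used.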

Additional observations from a re-analysis of the deposited data

Results flagged for a closer look

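The 4 XO libraries were tested for 1 standing apart (Dixon's ratio) in 32 sets of values, the named tiles, the mean over gained tiles and the share at 50% or more, and 4 sets showed one. Chance flags about 1 in 20 groups, but some of these tiles were named for low or variable XO levels, chr15:88121001-88122000 among them, so that rate is no reference for the 4. XO 9 was low at chr16:93382001-93383000 (72%, the others 85.5% to 87.8%), at chr15:88121001-88122000 (18.5%, the others 39.8% to 41.8%) and at chr9:63000001-63001000 (25%, the others 51.7% to 57%). XO 5 was low at chr4:152870001-152871000 (51.1%, the others 73% to 76.2%). XO 9 had 20 to 27 reads at its 3 tiles, and XO 5 had 92.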

How the results depend on the processing

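Of 78 alternatives, 61 left a result within 1.5 times its count or within its spread, and 17 moved it. A reversal of direction was not scored. For the shares in XO and XaXa the spread was the SD over the group's own libraries, 9.8 and 15.9 points. XaXa shares of 10.1% (without XaXa 7) and 32.6% (without XaXa 8) thus counted as unmoved beside 17.7%. The number of gained tiles was 1826 with 10 pooled reads, 705 with 50, 268 at 10% or less in MEF and 60% or more in XY iPSC, and 796 from unweighted means over libraries with 10 reads each (620 shared, of 126782 tiles eligible). With 1 XO library left out, the share of gained tiles lower in XaXa ran from 96.1% (without XO 5) to 98.7% (without XO 6). Of all tiles, 75.7% and 75.5% were lower in these fits. The count of gained tiles higher in XaXa ran from 0 to 1 (without XO 5, beside 32 of 48166 tiles). The share lower moved without XaXa 8, which leaves 1 XaXa library, with a mean difference of -24 points. The count higher moved with XO 6 as the only XO library, with a mean difference of -28.7 points. The share at 50% or more in SSEA1 positive was 1.7% with 50 reads, 3.37% on CpGs with 5 reads in that library, MEF and XY iPSC, and 16.7% for tiles chosen without MEF 5. In SSEA1 negative it was 5.97% with 10 reads, 1.51% with 50 and 14.7% without MEF 5, and in XO 77.3% with 50 reads (22 tiles). The share at least 20 points higher in SSEA1 positive than negative was 8.03% with 10 reads, 2.61% with 50 and 7.43% without MEF 5. The choices without MEF 5 and the down-weighted fit were added after seeing the data. The cause of these moves was not tested. No paired analysis was possible because the groups share fewer than 2 replicate numbers. Depth in XO 9 and in MEF limits which tiles can be compared.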
